A study of Homo sapiens with 12 samples.

Results

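The 9 genes described here encode the enzymes that make serine, convert it to glycine and pass its carbon through folate to thymidylate. They were PHGDH, PSAT1 and PSPH for serine synthesis, SHMT1 and SHMT2 for the serine to glycine step, MTHFD1, MTHFD2 and MTHFD1L for folate carbon, and TYMS for thymidylate. They were chosen by name, as 9 of 19970 protein-coding genes on chromosomes 1 to 22 and X, and for each of them the ATAC-seq peaks overlapping its RefSeq span plus 5 kb on both sides were collected. ATAC-seq marks open chromatin through the insertion of sequencing adapters by the Tn5 transposase. The nuclei came from MIAPaCa2, an established pancreatic ductal adenocarcinoma cell line, and accessibility was compared between parental cells and cells selected in oxamate, which inhibits the lactate dehydrogenase LDHA, each without and with oxamate.

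The 4 groups of 3 libraries were parental untreated cells, parental cells treated with oxamate, resistant untreated cells and resistant cells treated with oxamate. All 4 groups derive from the MIAPaCa2 line and share its culture medium, and the untreated cells received the vehicle. Whether the genome of the resistant cells differs from that of the parental cells, for example in copy number, was not tested. The resistant cells are a single population that survived culture in oxamate, so a difference between resistant and parental cells compares 2 populations of 1 line. Nothing in the labels says that the replicates came from separate cultures, so p-values measure the spread between these libraries, which may be technical. In bulk nuclei, more cells with an open site and a more open site in each cell cannot be told apart.

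Serine synthesis branches off glycolysis at 3-phosphoglycerate. PHGDH oxidises it, PSAT1 transfers an amino group and PSPH removes the phosphate. The hydroxymethyltransferases SHMT1, in the cytosol, and SHMT2, in mitochondria, then split serine into glycine and a folate-bound carbon, which MTHFD1 in the cytosol and MTHFD2 and MTHFD1L in mitochondria oxidise, reduce or release as formate. TYMS uses that carbon to make thymidylate for DNA synthesis. Several of these genes are known targets of the stress-response factor ATF4, and the pathway is known to be active in many tumours.

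The promoters of 4 of the 9 genes are shown as examples. PHGDH was taken for the difference in covered bases and PSAT1 for a peak that extended upstream. MTHFD1 and MTHFD1L were taken for peaks that changed in reach or rank. MTHFD2 and TYMS also changed in reach, and their promoters are not shown. Each sequence is the 250 bases before the start from RefSeq (GRCh38.p14), on the + strand of chr1:119711684-119711933 (PHGDH), chr9:78296875-78297124 (PSAT1), chr14:64388103-64388352 (MTHFD1) and chr6:150866083-150866332 (MTHFD1L, the first of its 4 listed starts). Capitals mark matches, on either strand, to the motifs GGGCGG, known as the SP1 box, CCAAT, bound by NF-Y, CACGTG, the E-box, and TGATGNAA, the composite element of ATF4 and its partners.
PHGDH: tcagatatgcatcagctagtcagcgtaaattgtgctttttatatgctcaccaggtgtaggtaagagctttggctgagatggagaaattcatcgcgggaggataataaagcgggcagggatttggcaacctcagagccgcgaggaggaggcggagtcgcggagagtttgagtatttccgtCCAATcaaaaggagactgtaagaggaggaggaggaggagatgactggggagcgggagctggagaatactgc
PSAT1: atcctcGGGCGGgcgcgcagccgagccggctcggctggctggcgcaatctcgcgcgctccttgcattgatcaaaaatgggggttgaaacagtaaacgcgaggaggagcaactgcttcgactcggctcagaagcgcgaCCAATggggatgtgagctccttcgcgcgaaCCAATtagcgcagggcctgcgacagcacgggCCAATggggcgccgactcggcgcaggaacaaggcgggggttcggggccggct
MTHFD1: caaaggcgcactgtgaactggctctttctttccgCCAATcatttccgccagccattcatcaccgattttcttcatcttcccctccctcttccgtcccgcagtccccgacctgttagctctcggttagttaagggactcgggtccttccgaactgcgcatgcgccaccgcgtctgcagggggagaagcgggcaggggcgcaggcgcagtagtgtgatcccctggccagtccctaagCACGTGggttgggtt
MTHFD1L: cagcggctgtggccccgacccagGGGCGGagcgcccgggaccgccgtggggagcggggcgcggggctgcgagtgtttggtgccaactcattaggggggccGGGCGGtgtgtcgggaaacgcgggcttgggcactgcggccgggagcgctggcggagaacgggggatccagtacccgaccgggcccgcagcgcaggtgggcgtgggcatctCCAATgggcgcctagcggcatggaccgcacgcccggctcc
PSAT1 held 3 CCAAT matches on the + strand, 113, 83 and 52 bases before the start, where PHGDH held 1, at 71 bases. MTHFD1 held an E-box 15 bases before its start. In MTHFD1L a TGATGNAA match began at base 25 after the start shown and thus beyond the printed bases. That same match lies 90 and 129 bases before other listed starts of the gene. An E-box of MTHFD1L began 1 base before the start shown and ran past it, so it is not marked. Of all 35116 listed promoters, each with 250 bases before and 50 after the start, 34.6% held a CCAAT match, 45.0% the SP1 box, 7.26% an E-box and 3.62% the composite. The bases before the start were 51.2% G or C in PHGDH, against 65.6% in PSAT1, 60% in MTHFD1 and 75.6% in MTHFD1L, with a median of 58% over all promoters. Of the 250 bases shown, peaks covered all 250 in 12 of 12 libraries at PSAT1, MTHFD1 and MTHFD1L but 133 to 197 at PHGDH, where the bases farthest upstream lay outside the peak. PSPH and SHMT2 are named without a promoter sequence. In the other promoters not shown, the 250 bases before the start held 4 matches to these motifs in SHMT1, 2 in MTHFD2 and 0 in TYMS.

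Across the 12 libraries the lists held 45748 to 62414 used peaks covering 13.8 to 33.7 Mb. The mean covered length was 23.7 Mb in parental untreated, 17.2 Mb in parental treated, 28.9 Mb in resistant untreated and 26.6 Mb in resistant treated libraries (n = 3 each). The narrowest peak, which follows the fragment length, was 67 to 87 bp in parental and 94 to 124 bp in resistant libraries, with no overlap. Relative depth, recovered from the fold and p-values of the lists and set to 1 in the shallowest library, was 1.33 to 2.77 in parental and 1 to 1.85 in resistant libraries. Covered length, fragment length and depth all moved with the groups, and their part in the results below was not tested. Lengths were therefore also expressed per Mb covered by all peaks of the library. As a check of the labelled cell type, start-site peaks were present at KRT8, KRT18 and VIM in 12 libraries and at KRT19 in 10. Of 10 blood, endothelial, acinar, islet and liver markers, 8 had no start-site peak in any library and CPA1 and PRSS1 had one in 1 library. PECAM1, CDH5 and INS did have a peak elsewhere in their windows in 12 libraries. Also, no library had a peak at CDKN2A, known to be deleted in this line.

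All 9 genes carried a peak within 1 kb of the start in 12 of 12 libraries, as did 55.7% of all coding genes. For PSPH and SHMT2, which have no listed start, either gene end was accepted. Their windows held 73 merged regions (overlapping peaks of the 12 lists joined), of which 14 were called in 12 libraries and 44 in a single library. Over the genome 13.6% of 178040 regions were called in 12 libraries and 59.5% in 1 library, near the 60.3% seen for the 9 genes. The presence of an open promoter therefore did not separate the groups, and the comparisons rest on how far the peaks reached, how they ranked and which weaker regions appeared.

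PHGDH, which commits carbon to serine synthesis, was the one member called different between resistant and parental cells. Its peaks covered 47.2, 58.9 and 51.7 bases per Mb in parental untreated libraries 1, 2 and 3. They covered 37.5, 30.3 and 25.1 in parental treated libraries. Resistant untreated libraries gave 74.5, 77.4 and 74.1 and resistant treated libraries 54.7, 39.5 and 62.1 bases per Mb. The resistant untreated libraries were the highest and the parental treated libraries the lowest, and no pair of compared groups overlapped.

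Averaged over treatment, covered bases at PHGDH were higher in resistant cells by 0.52 ± 0.12 (SE) on the log2 scale with 10 added, n = 6 against 6 (limma, adjusted p = 0.0359 over 16971 genes). Of all genes 4.53% were called in this contrast in either direction and 3.58% were called higher. One call among 9 genes cannot be set apart from those shares. Treated alone, the difference was 0.59 ± 0.17 (adjusted p = 0.0625), and untreated alone it was 0.45 ± 0.17 (adjusted p = 0.630), against 5.82% and 0.0707% of genes called. Oxamate was accompanied by differences of -0.62 ± 0.17 in parental cells (adjusted p = 0.111) and -0.48 ± 0.17 in resistant cells (adjusted p = 1), where 1.15% and 0% of genes were called (limma). In resistant cells 225 genes were higher and 245 lower with oxamate at an unadjusted p under 0.05. The difference between these responses was 0.14 ± 0.24 (limma interaction, adjusted p = 0.904, with 0.00589% of genes called). The resistant against parental call was lost when parental untreated 1 or 3, parental treated 3, any resistant untreated library, or resistant treated 1 or 3 was left out, which is 8 of 12 cases (limma, adjusted p from 0.0236 to 0.0905 over the 12). It was also lost with the replicate number as a block (limma, adjusted p = 0.0606) and with peaks within 1 kb of the start alone (limma, adjusted p = 0.112). The direction was kept in all of these. An exact permutation test within treatment gave PHGDH an adjusted p of 0.103. Resistant and parental libraries did not overlap in either treatment, so its p was the smallest possible in that test, 0.005. No gene could therefore fall below 0.103, and that test cannot decide the call.

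**Figure D1:**
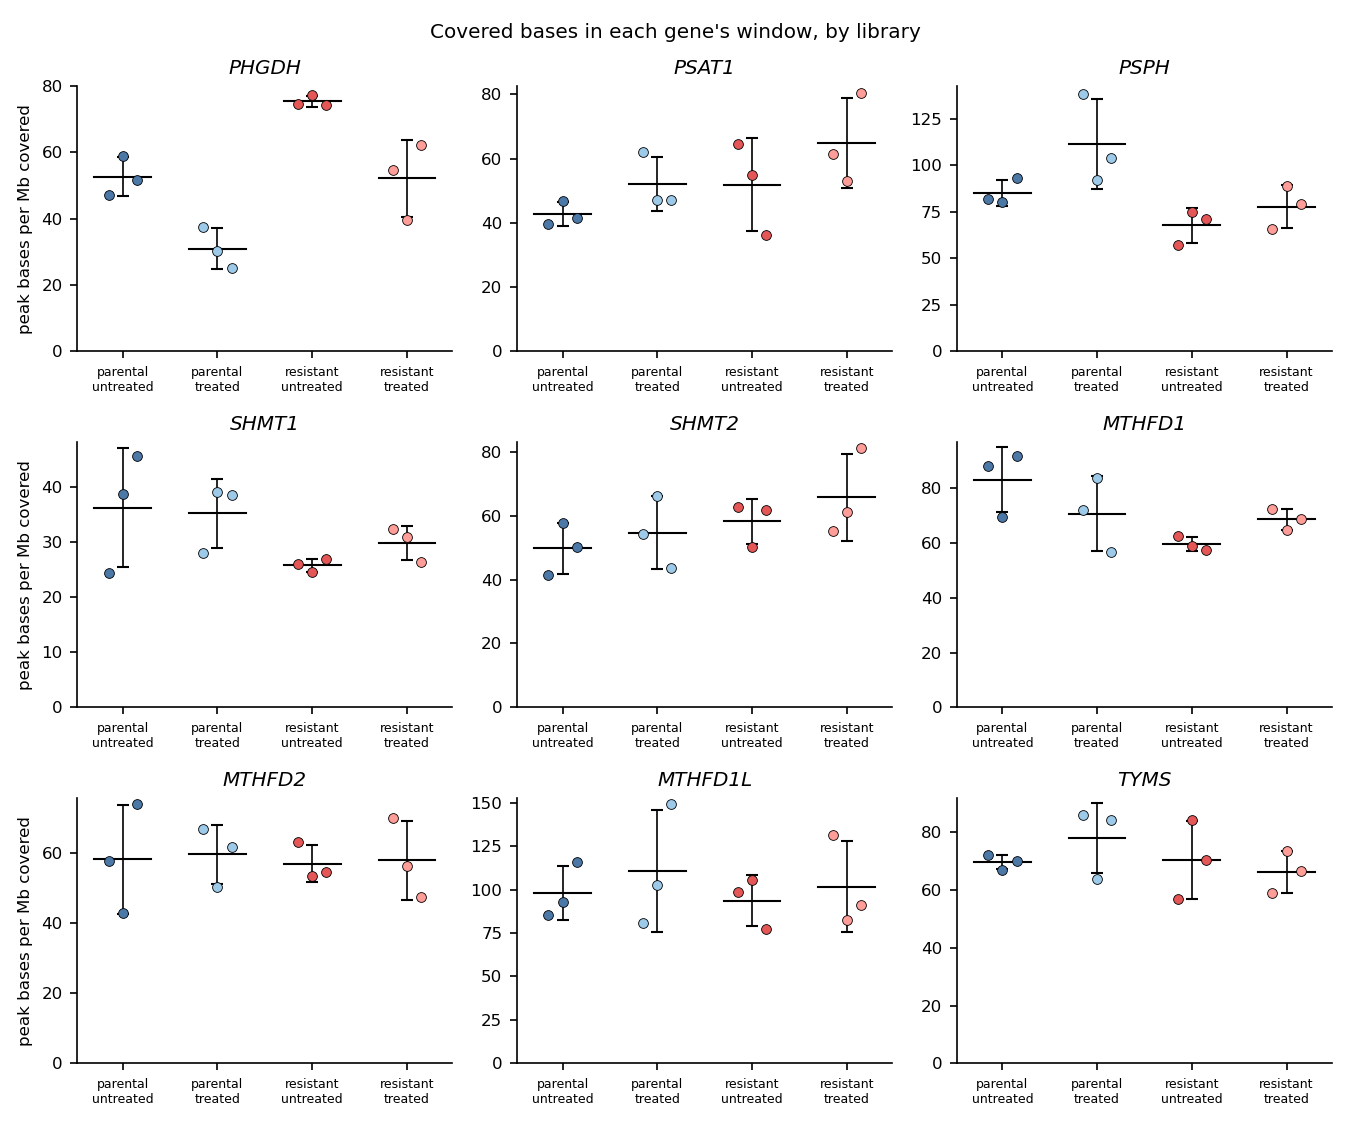
Peak bases in the window of each gene per Mb covered by all peaks of the library (vertical axis, from 0) in the 4 groups. Points are libraries, bars the group mean and whiskers the SD (n = 3). At PHGDH the resistant untreated points sit between 74.1 and 77.4 and the parental treated points between 25.1 and 37.5.

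The difference at PHGDH lay mainly in how far the start-site peak ran into the gene. The region was chr1:119711737-119713691, across the start at 119711934. On the upstream side the peaks began 133 to 197 bases before the start in all 12 libraries. On the downstream side they ended 532, 931 and 893 bases after the start in parental untreated libraries, and 566, 178 and 133 bases after it in parental treated libraries. In resistant untreated libraries they ended 1757, 1334 and 1180 bases after the start, and in resistant treated libraries 952, 298 and 984 bases. Resistant untreated libraries thus reached farther than every other library, a split whose share over genes was not counted. In parental untreated 3 and parental treated 1 the signal broke into a peak at the start and a second one downstream, which began at bases 502 and 492.

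The downstream reach did not overlap between untreated resistant and parental cells, as for 17.0% of 6533 genes with 1 listed start and a peak in every library. It also did not overlap between untreated and treated resistant cells, as for 5.60% of genes. The summed width of the start-site peaks was 829 ± 245 bp in parental untreated, 314 ± 47 bp in parental treated, 1616 ± 303 bp in resistant untreated and 934 ± 394 bp in resistant treated libraries (SD, n = 3). It was wider in resistant cells by 703 bp on average (two-sided exact permutation within treatment, p = 0.005, the smallest possible with 400 assignments, adjusted p = 0.0365). The width test was added after the PHGDH peaks had been seen. Widths were not scaled, and 21.7% of genes were called wider in resistant cells so widening was common over the genome. Of the 6 members with 1 listed start, TYMS was the other one called (exact permutation, adjusted p = 0.0462). PHGDH, TYMS, PSAT1 and SHMT1 had an unadjusted p under 0.05 for a wider peak, against 48.4% of genes. Under oxamate the PHGDH peaks differed by -599 bp (p = 0.005, exact permutation, adjusted p = 0.261), against 15.2% of genes narrower at an unadjusted p under 0.05. That p is again the smallest possible, so no gene could be called for oxamate and the test cannot decide this difference.

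**Figure D2:**
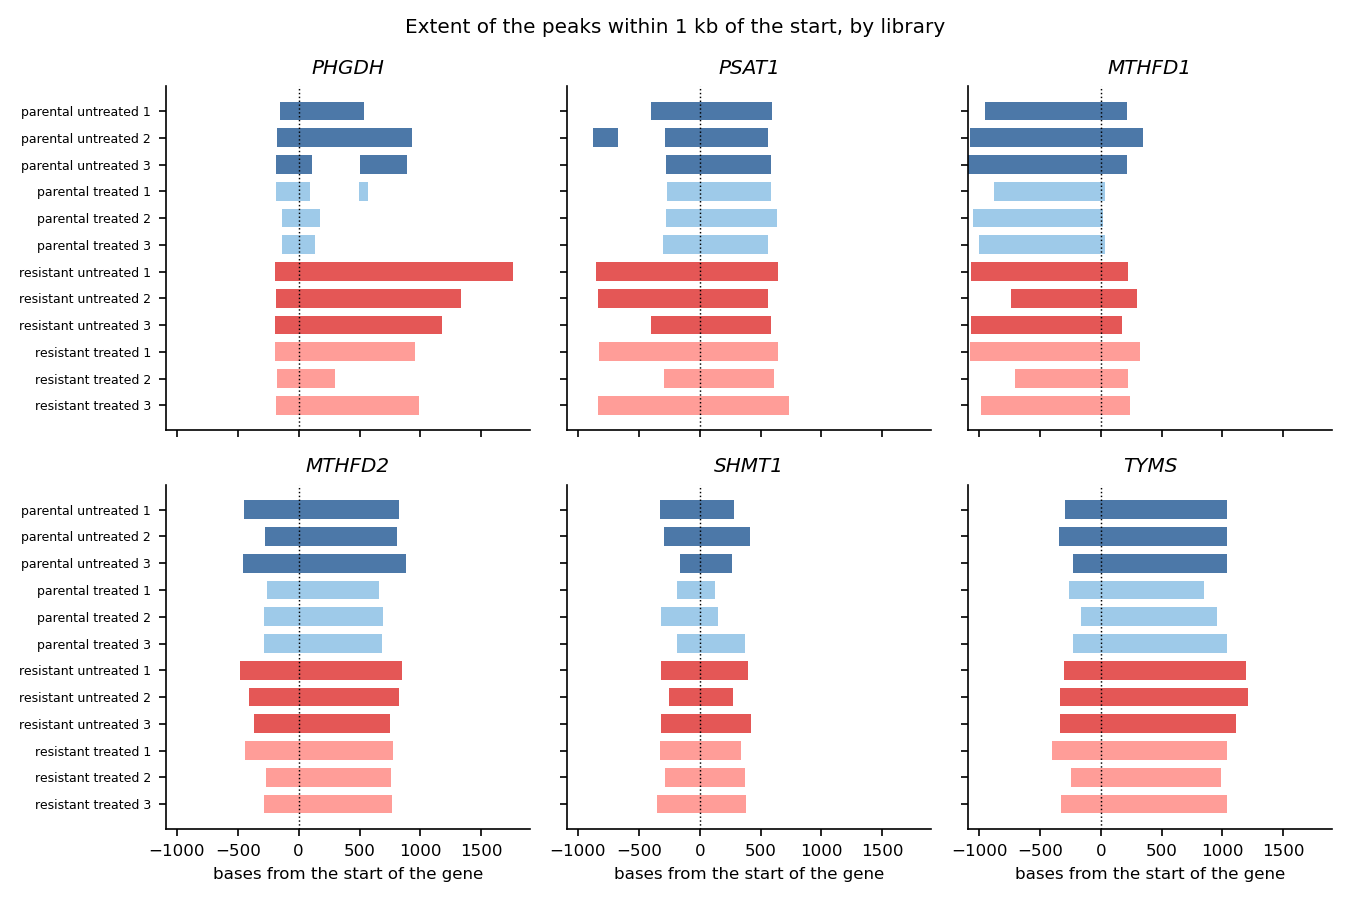
Extent of the peaks within 1 kb of the start in each library, in bases from the start of the gene (horizontal axis, 0 at the dotted line, transcription to the right), for 6 genes with a single listed start. Each row is a library, coloured by group. PHGDH peaks share an upstream edge and end between 133 and 1757 bases downstream.

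The peak at the other end of PHGDH, chr1:119743940-119744592, spans the last base of the gene at 119744215 and was called in 12 libraries. It covered 496, 390 and 303 bp in parental untreated, 156, 273 and 193 bp in parental treated, 554, 457 and 653 bp in resistant untreated and 530, 364 and 544 bp in resistant treated libraries. Parental treated libraries were the lowest here too. Per Mb they were below parental untreated libraries without overlap, as for 5.67% of 24148 regions called in 12 libraries, and below resistant treated libraries without overlap, as for 9.41%. The strength of the start-site peak did not follow its width. By percentile rank of -log10 q within a list, where a small number is a strong peak, PHGDH ranked at 19.3 to 49.3% in parental untreated, 34.1 to 49.8% in parental treated, 35.3 to 37.4% in resistant untreated and 18.7 to 32.3% in resistant treated libraries. The narrower resistant treated peaks thus ranked ahead of the wide resistant untreated ones without overlap, as 2.58% of regions called in 12 libraries did. Averaged over treatment the ranks differed by -8.58 points between resistant and parental cells (exact permutation, p = 0.170, adjusted p = 0.344). The lncRNA LOC105378937, on the opposite strand, starts 88 bases upstream, and the same peak covers both starts.

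PSAT1, the aminotransferase of the pathway, had a strong promoter peak at ranks of 1.80 to 7.14% in all libraries. Its window held 42.7 ± 3.70, 52.1 ± 8.53, 51.9 ± 14.4 and 64.9 ± 14.05 bases per Mb (SD, n = 3) in parental untreated, parental treated, resistant untreated and resistant treated libraries. The resistant against parental difference was 0.23 ± 0.14 (limma, adjusted p = 0.322). The downstream edge was steady, 560 to 732 bases after the start, whereas the upstream edge took 2 positions. It lay 829 to 853 bases before the start in resistant untreated 1 and 2 and resistant treated 1 and 3, and 267 to 401 bases before it in 7 other libraries. In parental untreated 2 a separate peak of 205 bp began 878 bases before the start. The upstream stretch was thus covered in 4 of 6 resistant and 1 of 6 parental libraries, and the groups overlapped in upstream reach (exact permutation, p = 0.105, adjusted p = 0.250).

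PSPH, the phosphatase, had the strongest promoter peak of the 9 genes. It lay at chr7:56051214-56052231, across the higher-coordinate end of the gene and the near end of CCT6A, with 321 bp between the genes, so that it cannot be assigned to PSPH alone. It ranked at 0.337 to 2.04% in the 12 libraries. Its window covered 1788 to 2185 bp in all libraries, a narrow range, so that its value per Mb was lower where the total covered length was larger. The value was 85.1 ± 7.02 in parental untreated, 112 ± 24.2 in parental treated, 67.8 ± 9.35 in resistant untreated and 77.9 ± 11.5 in resistant treated libraries. The resistant against parental difference was -0.38 ± 0.12 (limma, adjusted p = 0.0993). Its unadjusted p was under 0.05, as for the 11.0% of genes that were lower at that level. PSPH and MTHFD1 were lower without overlap in untreated resistant against parental cells, as were 9.20% of genes. PSPH was also lower without overlap in treated cells, as were 11.8% of genes.

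Inside PSPH a second region, chr7:56033698-56034723, was called in 12 libraries and is named here because its rank set 1 group apart. Its ranks were 5.68, 6.53 and 10.3% in parental untreated, 22.3, 12.0 and 15.02% in parental treated, 4.26, 6.53 and 5.99% in resistant untreated and 5.53, 10.6 and 6.46% in resistant treated libraries. All 3 parental treated libraries ranked it below all 9 others. The share of regions with such a split was not counted, and only shares for pairs of groups follow. Of 24148 regions called in 12 libraries, 16.2% ranked lower in the list in treated than in untreated parental cells without overlap, and 15.1% ranked higher in resistant treated than in parental treated cells. The ranks differed by -5.40 points between resistant and parental cells (exact permutation, p = 0.025, adjusted p = 0.139). Between treated and untreated cells they differed by 5.44 points (exact permutation, p = 0.025, adjusted p = 0.487). In untreated cells the resistant and parental ranks overlapped. The covered length of this region was nearly the same in every library, 907 to 1026 bp.

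SHMT1, the cytosolic hydroxymethyltransferase, had a narrow and strong promoter peak, 309 to 736 bp wide and at ranks of 1.51 to 4.76%. Its ranks were 3.44, 3.56 and 4.76% in parental untreated and 1.51, 2.88 and 3.35% in parental treated libraries, which did not overlap, as for 3.01% of regions called in 12 libraries. In resistant cells they were 3.73, 2.57 and 4.58% untreated and 2.30, 3.02 and 2.69% treated, which overlapped. Averaged over phenotype, treated libraries ranked it ahead by 1.15 points (exact permutation, p = 0.030, adjusted p = 0.391), a direction at that level in 0.548% of 11128 genes. Covered bases per Mb were 36.3 ± 10.8, 35.2 ± 6.28, 25.8 ± 1.20 and 29.9 ± 3.06 in the 4 groups in the order above, and the resistant against parental difference was -0.26 ± 0.13 (limma, adjusted p = 0.237).

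SHMT2, the mitochondrial form, had the weakest promoter peak of the 9 genes, at chr12:57229226-57230930 and ranks of 38.9 to 62.0%. The peak was 508 to 628 bp wide in parental treated and 569 to 1052 bp in parental untreated libraries. It was 991 to 1541 bp in resistant untreated and 771 to 1538 bp in resistant treated libraries. Per Mb the window held 49.8 ± 8.03, 54.7 ± 11.3, 58.2 ± 6.95 and 65.8 ± 13.6 bases in the 4 groups, and the resistant against parental difference was 0.21 ± 0.13 (limma, adjusted p = 0.336). A second region in its window called in 12 libraries, chr12:57238842-57239676, lies within the neighbouring COXFA4L2 gene and cannot be assigned to SHMT2 from position alone.

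MTHFD1, the cytosolic folate enzyme, had a promoter peak at ranks of 2.80 to 7.89%. The peak lay mostly upstream of the listed start and its downstream edge moved. It ended 212, 344 and 212 bases after the start in parental untreated libraries but 38, 19 and 37 bases after it in parental treated libraries. In resistant untreated libraries it ended 225, 301 and 174 bases after the start, and in resistant treated libraries 323, 224 and 241 bases. Parental treated libraries were below all 9 others, a split whose share over genes was not counted. For the pair alone, 22.4% of genes had a shorter reach in treated than in untreated parental cells without overlap. MTHFD1 and MTHFD2 also reached farther in resistant treated than in parental treated cells without overlap, as did 40.2% of genes. Reach is in unscaled bases, and per Mb the same start-site regions went the other way. The MTHFD1 region had a mean of 44.4 bases per Mb in resistant treated and 59.5 in parental treated libraries. For the MTHFD2 region these means were 42.0 and 56.7. Averaged over treatment the MTHFD1 reach differed by 104 bases between resistant and parental cells (exact permutation, p = 0.070, adjusted p = 0.173). MTHFD2 and TYMS were the other members with a shorter reach in treated parental cells without overlap.

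The MTHFD1 window held 83.1 ± 11.8, 70.7 ± 13.6, 59.7 ± 2.57 and 68.7 ± 3.81 bases per Mb in parental untreated, parental treated, resistant untreated and resistant treated libraries. Untreated resistant cells were lower than untreated parental cells with a difference of -0.41 ± 0.16 (limma, adjusted p = 0.639), against 2.75% of genes lower at an unadjusted p under 0.05. In treated cells the difference was -0.02 ± 0.16 (adjusted p = 0.940). The interaction was 0.39 ± 0.22 (adjusted p = 0.676). MTHFD1 was higher without overlap in treated than in untreated resistant cells, as were 4.45% of genes. A region beyond the gene, chr14:64464629-64466457, inside ZBTB25, was called in 11 libraries and covered from 141 to 1766 bp. The window ended at position 64465025, so that most of the region did not enter the window values.

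MTHFD2, the mitochondrial dehydrogenase and cyclohydrolase, ranked at 4.46 to 8.67% at its promoter. It ranked 7.37 to 8.67% in parental untreated and 4.80 to 6.16% in resistant untreated libraries without overlap, as did 9.18% of regions called in 12 libraries. Its peak ended 811 to 879 bases after the start in parental untreated, 659 to 691 in parental treated, 747 to 846 in resistant untreated and 761 to 777 in resistant treated libraries. Window values per Mb were close in all groups, with means of 56.9 to 59.5, and the resistant against parental difference was -0.02 ± 0.14 (limma, adjusted p = 0.937). The 95% interval of that difference ran from -0.32 to 0.27.

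The MTHFD2 window held the one member region present throughout one group (3 of 3) and absent from its comparison group (0 of 3). This was chr2:74221760-74222130, called in 0 parental untreated, 1 parental treated, 3 resistant untreated and 2 resistant treated libraries. It lies 23145 bases from the MTHFD2 start, beyond the gene and inside SLC4A5, and its peaks were weak, at ranks of 54.3 to 98.7%. Of 121095 regions called in any untreated library, 0.652% were gained in this way in resistant cells, and 1.06% changed in either direction. No member region did so in the other comparisons, where 1.36% of regions changed with oxamate in parental cells, 0.515% with oxamate in resistant cells and 2.71% between treated resistant and parental cells. The difference between 5 of 6 resistant and 1 of 6 parental libraries gave p = 0.0801 (two-sided Fisher's exact test). The other 2 member regions called in 5 to 7 libraries, in MTHFD1 and MTHFD1L, gave p of 0.567 or above, and 11.4% of 9507 such regions reached an unadjusted p under 0.05 by phenotype and 1.39% by treatment.

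**Figure D3:**
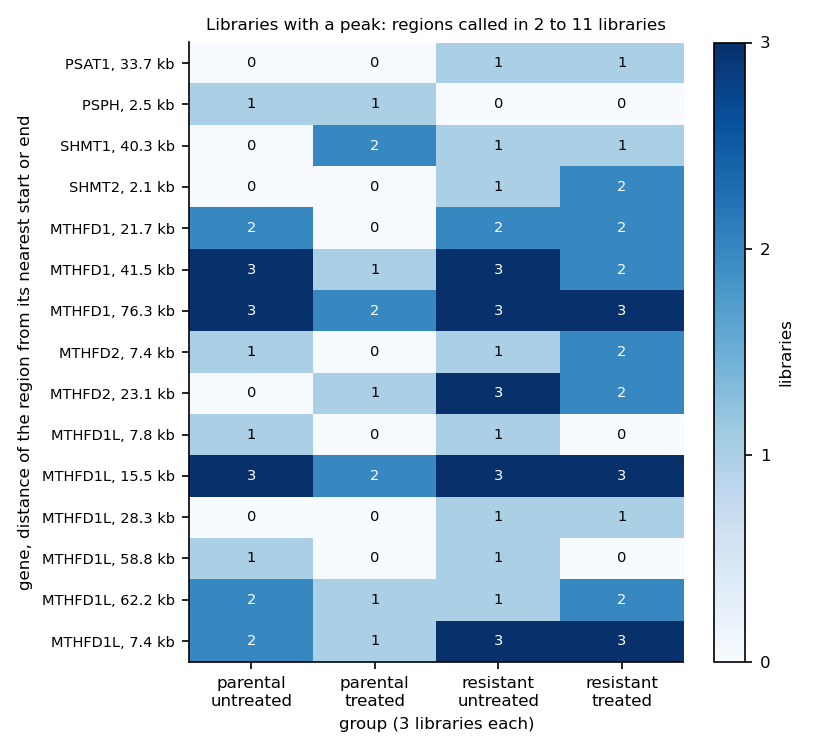
Number of libraries with a peak (colour and digits, 0 to 3) in each group for the 15 member regions called in 2 to 11 libraries. Rows give the gene and the distance in kb from its nearest listed start, or from the nearest gene end for PSPH and SHMT2. The MTHFD2 row farthest from its start reads 0, 1, 3 and 2.

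MTHFD1L, which releases formate in mitochondria, has the longest span, 236186 bp, and the most regions, 24, of which 16 were called in 1 library. Its promoter peak ranked at 18.7, 22.4 and 26.1% in parental untreated and at 34.8, 27.6 and 28.8% in parental treated libraries. It ranked at 11.2, 21.98 and 19.1% in resistant untreated and at 14.04, 18.2 and 16.8% in resistant treated libraries. Parental treated libraries were the weakest. They did not overlap with parental untreated or with resistant treated libraries, as for 16.2% and 15.1% of regions called in 12 libraries. The ranks differed by -9.52 points between resistant and parental cells (exact permutation, p = 0.015, adjusted p = 0.0945). An internal region, chr6:151014431-151015032, was called in 3 of 6 parental and 6 of 6 resistant libraries. Fisher's exact test gave p = 0.182, the smallest possible for a region called in 9 libraries, so it cannot decide this comparison. The share of all regions with such a split was not counted. Another internal region, chr6:150891691-150892209, was called in all 12. Window values per Mb were 98.1 ± 15.7, 111 ± 35.0, 93.7 ± 14.6 and 102 ± 26.1 in the 4 groups, and the resistant against parental difference was -0.08 ± 0.16 (limma, adjusted p = 0.794).

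TYMS, thymidylate synthase, had a promoter peak at ranks of 10.6 to 26.2%, which overlaps the antisense lncRNA TYMSOS. The peaks ended 1034, 1039 and 1039 bases after the start in parental untreated and 845, 952 and 1033 in parental treated libraries. They ended 1194, 1210 and 1113 bases after it in resistant untreated and 1039, 985 and 1033 in resistant treated libraries. The reach in resistant untreated libraries exceeded every other library, and the share of genes with such a split was not counted. Without overlap, 17.0% of genes reached farther in untreated resistant than in untreated parental cells and 5.60% less far with oxamate in resistant cells. The widths were 1326 ± 58.5, 1162 ± 83.5, 1494 ± 48.5 and 1343 ± 109 bp, wider in resistant cells by 175 bp (exact permutation, p = 0.010, adjusted p = 0.0462). That width is unscaled, and per Mb the window differed by -0.10 ± 0.12 (limma, adjusted p = 0.623). A region inside the gene, chr18:666099-666621, which ENOSF1 overlaps, was called in 12 libraries and covered 74 to 481 bp.

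**Figure D4:**
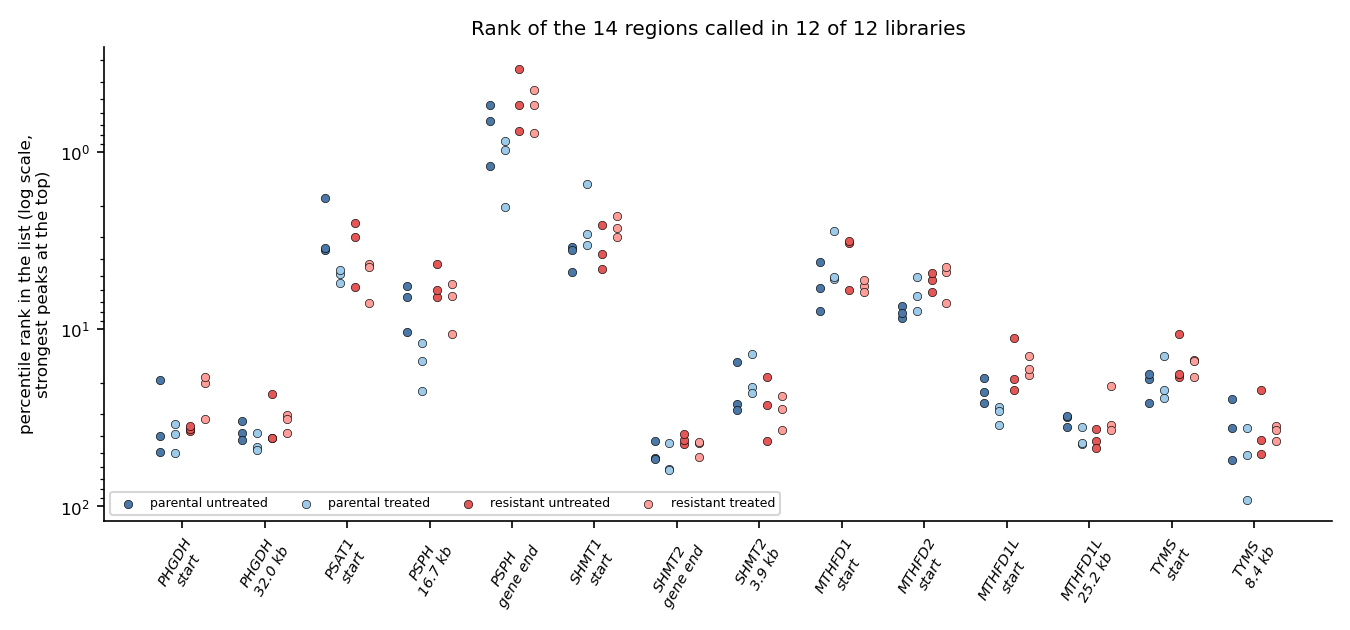
Percentile rank by -log10 q within each list (vertical axis, log scale, strongest at the top) of the 14 member regions called in 12 of 12 libraries, labelled by gene and by distance from the start, or from the nearest gene end for PSPH and SHMT2. Points are libraries coloured by group. PSPH at its gene end ranks between 0.337 and 2.04% and SHMT2 between 38.9 and 62.0%.

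The promoter peaks fell into a stronger and a weaker set. In every library PSPH, SHMT1, PSAT1, MTHFD1 and MTHFD2 ranked at 8.67% or ahead, and TYMS, MTHFD1L, PHGDH and SHMT2 at 10.6% or behind. Over the 12 libraries the median ranks were 0.715% at PSPH, 3.18% at SHMT1, 4.35% at PSAT1, 5.24% at MTHFD1 and 6.34% at MTHFD2, followed by 18.2% at TYMS, 20.5% at MTHFD1L, 35.8% at PHGDH and 44.0% at SHMT2. The median over 11128 genes was 13.0%, so 5 members were stronger than it and 4 weaker. Neighbours in this order overlapped in range, except MTHFD2 and TYMS. Of the 9 members, MTHFD2, MTHFD1L, PSPH and SHMT2 ranked ahead in resistant cells at an unadjusted p under 0.05, against 22.5% of genes, and none passed adjustment. Over all genes 0 of 11128 passed adjustment by phenotype and 0 by treatment (stratified exact permutation). The smallest adjusted p was 0.0651 by phenotype and 0.391 by treatment. With a smallest possible p of 0.005 in that test, no gene could pass, so it cannot decide these ranks.

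In covered bases per Mb, unadjusted p-values under 0.05 were few. By phenotype, PHGDH was higher and PSPH lower, against 14.4% of genes higher and 11.0% lower. In treated cells the same 2 genes passed in the same directions, against 15.4% higher and 9.75% lower. In untreated cells PHGDH was higher and MTHFD1 lower, against 4.18% and 2.75%. With oxamate PHGDH was lower in parental and in resistant cells, against 10.8% and 1.44% of genes. The 2 oxamate comparisons use different libraries, whereas each resistant against parental comparison shares its libraries with them. PHGDH was the one member without overlap in all 4 comparisons: lower with oxamate in parental cells (9.91% of genes) and in resistant cells (3.20%), and higher in resistant cells untreated (6.51%) and treated (14.8%). The share of genes without overlap in all 4 was not counted, so this pattern cannot be set apart from the other genes. PSAT1 was higher with oxamate in parental cells without overlap, as were 9.16% of genes.

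**Figure D5:**
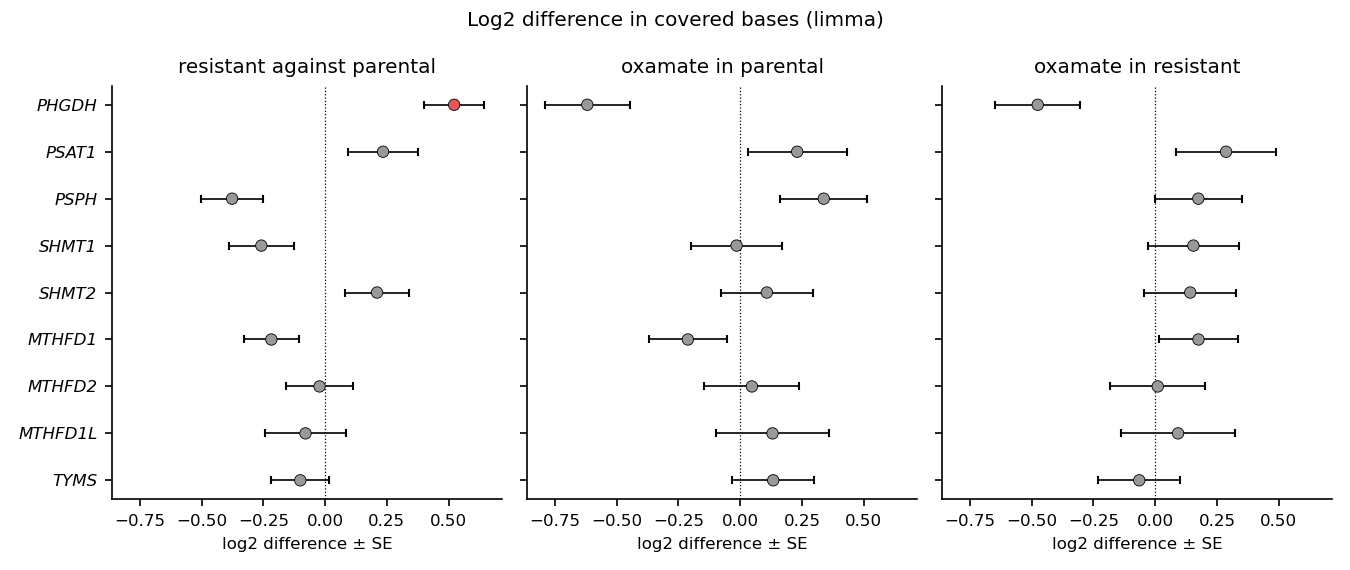
Log2 difference in covered bases per Mb (horizontal axis, limma, points with SE) for the 9 genes in 3 contrasts. Red marks an adjusted p under 0.05. PHGDH is the one red point, at 0.52 in the resistant against parental contrast, and lies at -0.62 and -0.48 in the oxamate contrasts.

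The median log2 difference over the 9 members was -0.08 for resistant against parental, 0.11 for oxamate in parental cells and 0.14 for oxamate in resistant cells, against medians of -0.0019, -0.015 and 0.030 over all 16971 genes. Of these genes 607 were called higher and 162 lower in resistant cells. Without scaling to the total covered length the split was 5840 higher and 73 lower and the median over all genes moved to 0.35, and unscaled differences, that of PHGDH (0.88) included, must be read against that shift.

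A wider list of 45 genes of the folate and methionine cycles, glycine cleavage, serine transport and purine synthesis gave 41 genes with enough coverage, and 0 were called in any of the 6 contrasts (limma), where 4.53% of all genes were called for resistant against parental. At an unadjusted p under 0.05 in that contrast 6 were higher and 2 lower, against 14.4% and 11.0% of all genes. Their differences ran from -0.45 to 1.13 on the log2 scale. The median over the 41 was 0.026.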

How the data were processed

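ATAC-seq peak lists of 12 libraries were used, grouped by sample title into 4 groups of 3. The authors aligned reads to hg38 with Bowtie2 2.1.0, discarded reads that were mitochondrial, duplicated or not uniquely placed, and ran broad peak calling on each library with MACS2 in paired-end mode (version not given in the sources used here). Each deposited list gives a score, a fold (a ratio over local background), and the -log10 p-value and -log10 q-value of each peak. No read counts are in the lists, so the count test of the study was not run, and depth is known only as a relative value from fold and p-values.

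Of 677901 peaks, the 671854 lying on the autosomes or X were kept. Positions are 1-based on GRCh38, which is the build of the lists, and gene spans are from RefSeq (GRCh38.p14). Starts came from the RefSeq promoter table for 15812 of 19970 coding genes, and either gene end was used for the others. Covered bases in the window were divided by the Mb covered by all peaks of the library, 10 was added and log2 taken, and the values were fitted with limma 3.58.1 (R 4.3.3) over 16971 genes covered in at least 3 libraries, with 4 group means and no replicate block. Adjusted p is Benjamini-Hochberg over all genes or regions of the same test, called under 0.05. The sets were 16971 genes for covered bases, 11128 for start-site ranks and 6533 for reach and width. For the ranks of the region inside PSPH the set was the 24148 regions called in 12 libraries. Regions are peaks of the 12 lists merged at 1 bp and were compared by Fisher's exact test. Ranks of start-site peaks were compared by exact permutation within strata (400 assignments, smallest p 0.005). The scripts were tested on simulated data. Python 3.11.15 and scipy 1.17.1 were used.

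The alternatives tried are listed in the closing section. The members and lists were chosen with earlier results of these data known. The text names all 9 members, every region called in 3 of 3 against 0 of 3 libraries and the start-site regions. Other regions, and the comparisons of peak reach and of ranks at regions called in 12 libraries, were chosen after their values were seen. The numbers were not used as pairs. Deviations of same-numbered libraries from their group means had correlations from -0.177 to 0.199. Between untreated and treated resistant libraries these were 0.177, 0.199 and 0.038, against -0.223 to 0.083 for different numbers. Between untreated and treated parental libraries they were -0.0017, 0.035 and 0.037, against -0.041 to 0.011. Whether the numbers mark batches was not tested. One marker of other cell types is not reported here.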

Additional observations from a re-analysis of the deposited data

How the results depend on the processing

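The number of members called for resistant against parental, 1 (PHGDH), became 4 on unscaled bases, 4 with peaks at -log10 q of at least 3, 2 with the same number of top-ranked peaks, 0 within 1 kb of the gene start and 0 to 1 with each library left out. Exact permutation within strata also gave 0, but PHGDH had the smallest possible p there and no gene could be called. With a replicate block the number was 0, with PHGDH at an adjusted p of 0.0606 (limma). The fit with the block changed no other call of a member. In treated cells the number, 0, became 3 on unscaled bases, 3 at -log10 q of at least 3, 1 on the gene span only and 0 to 1 with a library left out. For oxamate in parental cells, 0 became 1 (PHGDH) on unscaled bases and 1 on the gene span only. TYMS, which had -0.10 for resistant against parental, reversed to 0.29 on unscaled bases. Of 1197 log2 differences of members under alternatives, 1168 kept their side of the threshold, 11 lost a call, 17 gained one and 1 reversed. The 11 include PHGDH under exact permutation, where no gene could be called. A change of sign was seen in 118, the reversed one included.

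The PHGDH call held without parental untreated 2, parental treated 1, parental treated 2 and resistant treated 2 (adjusted p down to 0.0236) and was lost without each of the other 8 libraries (up to 0.0905), 3 of which are resistant untreated. The log2 difference stayed between 0.46 and 0.60. Over all genes, calls for resistant against parental numbered 769, of which 78.9% were higher. They numbered 5913 on unscaled bases (98.8% higher), 4719 at -log10 q of at least 3 (39.6%), 1448 with top-ranked peaks (57.8%), 441 at a pseudocount of 1 and 274 to 878 with a library left out.

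The gained MTHFD2 region, 1 in untreated cells, became 0 at -log10 q of at least 3, 0 with top-ranked peaks and 0 with peaks covering at least 50% of the region, and stayed 1 with each library left out. In treated cells, 0 became 2, 1 and 1 in the same order and 0 to 1 with a library left out, and for oxamate in parental cells 0 to 1 with a library left out. Fisher's test by phenotype gave 1 member region under 0.05 at -log10 q of at least 3 and 0 to 1 with a library left out. No member was called by rank under any alternative, but in the main rank test no gene could be called. The cause of these changes was not tested. Peak lists carry no read counts, so weak regions limit what presence or absence can show.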
